A study of Bos taurus with 20 samples.

Results

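The comparison described here asked what was left of an E. coli infection in mammary tissue 24 h post challenge, after 2 infusions of an antibiotic. It set the treated glands of a cow against the gland of the same cow that was never challenged. It rested on 6 of the 20 arrays of the series, chosen by their labels alone, with 4 treated and 2 not challenged (NC) glands of 2 cows and 1 array per gland. Both animals were Holstein Friesian cows in mid lactation, and their age is not given in the sources used here. In each cow 3 of the 4 glands received 100 cfu of 1 E. coli strain. One rear gland then received 300 mg of the cephalosporin antibiotic cefapirin (CF). The other rear gland received 300 mg of cefapirin together with 20 mg of the glucocorticoid prednisolone (CFPD). The infusions were given at 4 and 12 h post challenge. The left front gland was challenged and left untreated (CNT), and its 2 arrays serve below as a scale and in the filter on low signals. In both cows NC was the right front gland, so the position of a gland and its treatment cannot be told apart. The side was not fixed for the rear glands, since by the labels the left rear gland was CF in cow 1 and CFPD in cow 2. No gland was infused without a challenge, so effects of the drugs and of the infection that remained cannot be told apart either. The NC gland shared its animal with 3 challenged glands. The labels place the tissue in the cisternal region, whereas the methods describe mid parenchyma.

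A cow's udder holds separate glands that can be infected one by one. Lipopolysaccharide of E. coli is sensed by CD14 and the Toll-like receptor TLR4 on macrophages and mammary epithelium, and NF-kB then turns on chemokine and cytokine genes. The CXC chemokines CXCL8, CXCL2 and GRO1 draw neutrophils from blood into the gland, acute phase proteins such as haptoglobin follow, and synthesis of milk fat is reduced. Glucocorticoids are known to repress many NF-kB targets and to induce genes such as FKBP5.

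All values are log2 signals of probe sets, and a difference of 1 is a doubling. The 8 arrays of 24 h had medians between 7.13 and 7.17. The tissue label was checked against markers of the secretory epithelium, of which 10 of 11 passed the filter on low signals. CSN2, which encodes beta casein, had a level of 15.47 in the NC gland of cow 1 and 15.43 in that of cow 2, and levels between 15.47 and 15.53 in the 4 treated glands. The median of the 10 markers was within 0.063 of NC in each treated gland (differences 0.001, 0, 0.002 and -0.063). A hybridisation control, BioB3, separated the cows with levels of 9.60 to 10.08 in the NC and treated glands of cow 1 and 8.25 to 8.62 in those of cow 2. Each comparison was therefore made within the cow.

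No probe set passed the test of treated against NC glands. Of 13004 tested with limma, with the cow as a block, 0 (0%) had an adjusted p under 0.05 and a log2 difference of at least 1, and the smallest adjusted p was 0.136. At an unadjusted p under 0.05 the count was 1520 (11.7%), with 491 (3.78%) higher and 1029 (7.91%) lower in treated glands. With a trended and robust prior 1 probe set was called. It carries the symbols NDFIP1 and DIRAS3, and its level was 1.04 lower in treated glands with an adjusted p of 0.0426 in limma. As a scale, the CNT glands, set against the same NC arrays in a fit of all 8 arrays, had 534 called probe sets (4.11%) that were higher and 277 (2.13%) that were lower. The p-values measure the spread between single glands of 2 cows.

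The direction was uneven. In all 4 treated glands 2486 probe sets (19.1%) were below the NC gland of the cow and 1811 (13.9%) above it. Of the 20 genes of 1 symbol with the smallest p, 19 were lower in treated glands. Without the gland of cow 2 labelled CFPD, 834 probe sets were lower and 367 higher at an unadjusted p under 0.05.

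The 4 treated glands did not lie equally close to NC. By the labels, the CF and CFPD glands of cow 1 and the CF gland of cow 2 had 33 (0.254%), 15 (0.115%) and 9 (0.0692%) probe sets at least 1 above the NC gland of the cow. The gland of cow 2 labelled CFPD had 130 (1%), and the CNT glands had 804 (6.18%) in cow 1 and 512 (3.94%) in cow 2. At least 1 below NC were 65 (0.5%), 15 (0.115%), 37 (0.285%) and 88 (0.677%) probe sets in the treated glands in the same order. The distance of the whole profile from NC (1 minus Pearson's r) was 0.0147 and 0.0106 in the CF and CFPD glands of cow 1 and 0.0104 in the CF gland of cow 2. The gland of cow 2 labelled CFPD was farther away at 0.0246, yet nearer than the CNT glands at 0.0963 and 0.0596. The NC glands of the 2 cows lay 0.0348 apart. With Spearman's correlation or without the filter, 7 of 8 distances of treated glands from NC moved clearly and 1 did not, so their size depends on the measure. These are single arrays, so the differences between glands have no replicate check. The array of cow 2 labelled CFPD also had the lowest 3′ minus 5′ difference of the actin control probe sets, a measure of RNA integrity, at 0.82 against 1.16 to 1.54 in the other treated and NC glands. A lower value stands for more intact RNA. The GAPD control did not set it apart, at 1.12 beside 1.10 in the CF and 1.23 in the NC gland of cow 2. The part of RNA quality in the results was not tested.

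The CF and CFPD labels of cow 2 are in doubt. The CF and CFPD tables of the study for 24 h follow the deposited arrays clearly better when the labels of cow 2 are exchanged, and those of cow 1 are not. Which side is right was not settled here. The study reports that the challenge strain still grew from the CF gland of a single cow at this time. For the other cows it reports no growth in milk from treated glands. The sources used here do not name that cow, so the growth cannot be assigned to an array. Whether it bears on the labels or on the values of any gland was not tested. Labels are used as deposited, every gland is named by its cow, and the comparison of treated with NC glands does not depend on them.

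Genes of the untreated infection were near NC in most treated glands. A set was chosen on the other cows, sampled at 48 h, and held the 530 probe sets (4.08%) called higher in CNT than in NC glands there, of which 507 were measured at 24 h. In the CNT glands of 24 h their median difference from NC was 1.26 in cow 1 and 0.93 in cow 2. In the treated glands it was -0.068 and -0.037 in the CF and CFPD glands of cow 1 and -0.061 and -0.024 in those of cow 2. The median of treated minus NC was -0.038, beside -0.013 over the 12518 probe sets tested at both times. In all 4 treated glands 24.3% of the set were below NC and 14.6% above, beside 19.2% and 13.8% of all. The medians hide a tail in 1 gland. In the gland of cow 2 labelled CFPD 48 of the 507 (9.47%) were at least 1 above NC, beside 0.951% of all probe sets, and the other treated glands held 8 (1.58%), 5 (0.986%) and 2 (0.394%). The gland labelled CFPD was above the one labelled CF for 332 of the 507 (65.5%) in cow 2, beside 52.6% of all. Of the 178 probe sets (1.37%) called lower in CNT glands at 48 h 166 were measured, and they had a median of 0.040 in treated minus NC, and of -0.89 and -0.83 in the CNT glands.

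**Figure D1:**
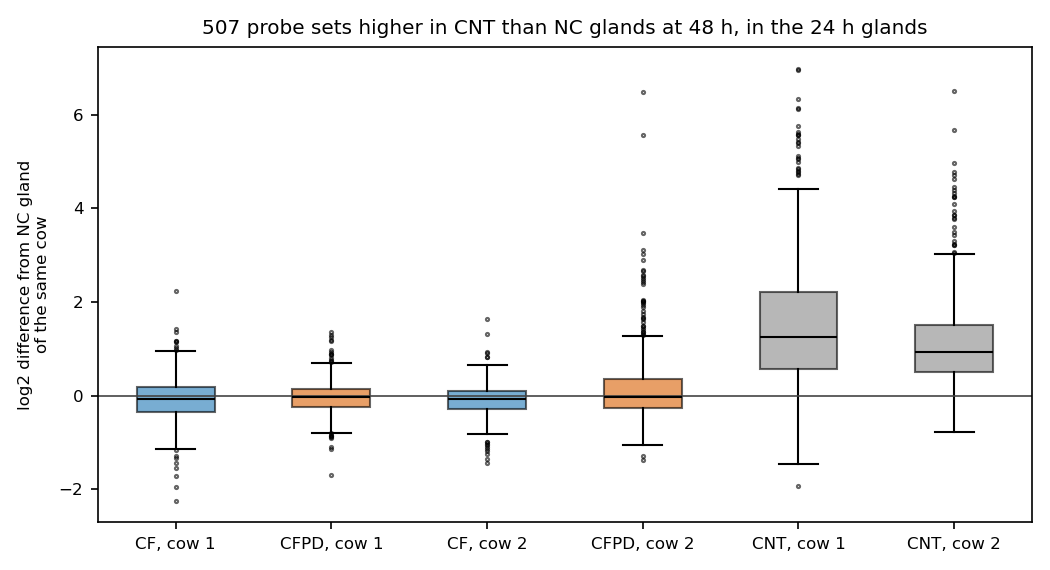
Log2 difference from the NC gland of the same cow (vertical axis) for the 507 probe sets that were higher in CNT than NC glands at 48 h, in each challenged gland of 24 h (horizontal axis, as labelled). Boxes span the quartiles with the median as a line, whiskers reach the last value within 1.5 box lengths and points lie beyond. The 4 treated glands have medians between -0.068 and -0.024, and the upper tail is longest in the CFPD gland of cow 2.

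Chemokine genes were part of that tail. Of 17 tested chemokine genes 7 were at least 1 above NC in the gland of cow 2 labelled CFPD, beside 0.997% of all genes, against 2 in the gland labelled CF and 0 in either treated gland of cow 1. The filter counted that gland and the CNT arrays, so genes dim elsewhere, such as CXCL2, passed through glands where they were high. This favours such counts, here and in the lists below. Among chemokines left out by the filter, CXCL10 was 1.76 above NC in that gland. CCL11, CCL21, CCL22 and CXCL13 differed there by -0.01, 0.03, 0.07 and -0.27. CXCL8, the main neutrophil chemoattractant, had levels of 7.23 in the NC, 7.36 in the CF and 7.17 in the CFPD gland of cow 1. In cow 2 its level was 5.72 in NC, 7.03 in CF and 12.21 in the gland labelled CFPD, and the CNT glands were at 12.01 and 11.39. So 1 treated gland lay above both untreated ones while the treated glands of cow 1 lay with NC, and the groups overlapped. The difference of treated minus NC for CXCL8 was 1.97 with a standard error of 1.38 and an adjusted p in limma of 0.628, and it ran from 0.035 to 3.91 when 1 array was left out. For CXCL2, another neutrophil chemokine, the levels were 5.54, 5.07 and 6.35 in the NC, CF and CFPD glands of cow 1, and 5.60, 5.36 and 11.16 in those of cow 2. Again a single treated gland stood with the CNT glands, at 11.12 and 10.57. Without that gland the pooled difference for CXCL2 went from 1.41 to -0.009.

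GRO1, of the CXCL1 family, is carried by 4 probe sets that disagree. A probe set with a level of 5.64 in the NC gland of cow 1 and 6.06 in that of cow 2 was at 5.99 and 6.15 in the treated glands of cow 1. In cow 2 it was at 6.43 in the CF gland and at 10.98 in the gland labelled CFPD. The second and the third of these probe sets were 5.05 and 3.47 above NC in that gland. The brightest of the 4 was only 0.52 above NC there and hardly differed in the CNT glands, by -0.004 and 0.43. It stands for GRO1 in the counts of the list.

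Other chemokine genes were also highest in the gland of cow 2 labelled CFPD. CXCL11, a ligand of CXCR3 on T cells, was 4.04 above NC there, and 0.76, -0.08 and 1.06 above NC in the CF and CFPD glands of cow 1 and the CF gland of cow 2. CCL20, which draws dendritic and T cells through CCR6, differed from NC by 0.21, 0.11, -0.04 and 3.06 in these 4 glands, the last being cow 2 labelled CFPD. For CXCL5 the difference was 2.90 there, and 0.17, 0.02 and 0.92 in the others. CCL2, a monocyte chemoattractant, was above NC in all 4 glands, at 0.50, 0.89, 0.30 and 2.56. Its pooled difference was 1.06 with a standard error of 0.54 and an adjusted p in limma of 0.509, and without the gland of cow 2 labelled CFPD it was 0.53 (over the arrays left out in turn, CCL2 ran from 0.53 to 1.49). CCL4 and CCL3, made by activated macrophages among other cells, were at most 0.72 and 0.69 above NC in any treated gland over their probe sets. The CNT glands were 3.29 and 2.47 above NC for CCL4, and 5.76 and 3.50 for the probe set of CCL3 that reached 0.69. CCL19, CXCL3 and 4 others of the 17 were above NC in all 4 treated glands, and CXCL16, CCL5 and CXCL12 were below it in all 4. At an unadjusted p under 0.05, 2 chemokines were higher and 2 lower, beside 3.11% and 7.56% of all 6720 genes.

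Some cytokine and NF-kB genes set the same gland apart. Of 19 tested cytokine and receptor genes 2 were at least 1 above NC in the gland of cow 2 labelled CFPD, beside 0.997% of all genes. The list's median there was 0.184. IL6, a cytokine that drives acute phase responses, had levels of 4.61, 4.79 and 4.64 in the NC, CF and CFPD glands of cow 1, and of 4.79, 5.18 and 7.88 in those of cow 2. The CNT glands were at 6.32 and 7.44 for IL6, below the gland of cow 2 labelled CFPD. IL6 passed the filter only through the CNT gland of cow 2 and the gland of cow 2 labelled CFPD. TNF failed the filter and was not tested, but its level in that gland was 8.28, against 6.04 in the NC and 6.17 in the CF gland of cow 2, and 6.23 and 6.53 in the CNT glands. IL1B, also not tested, was at 7.02 there against 6.43 in the NC gland of cow 2, and at 8.65 and 6.88 in the CNT glands. The other cytokine and receptor genes left out by the filter were between -0.13 and 0.31 from NC in the gland of cow 2 labelled CFPD. NFKBIA, the inhibitor that NF-kB itself induces, differed from NC by -0.44, -0.77, 0.08 and 2.47 in the 4 glands. Of 19 genes of Toll-like receptor and NF-kB signalling 6 were at least 1 above NC in the gland of cow 2 labelled CFPD and 0 in the others. Besides NFKBIA these were BCL3 at 1.81, TLR2 at 1.58, NFKBIZ at 1.46, CD14 at 1.45 and NFKBIE at 1.14. Other probe sets of NFKBIZ and NFKBIE were lower there, at 0.10 for NFKBIZ and at 0.94 and 0.53 for NFKBIE. TLR4 itself was 0.14 to 0.20 below NC in all 4 treated glands.

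Among 12 genes of IL6, STAT3 and SOCS feedback 4 were at least 1 above NC in that gland, and among 13 BCL2 family and caspase genes 2, beside 0.997% of all genes. ICAM1, an endothelial and epithelial ligand for neutrophils, differed from NC by -0.30, -0.23, -0.09 and 2.58. BCL2A1, an anti-apoptotic NF-kB target, differed by -0.42, -0.14, 0.26 and 2.67. PIM1, a kinase downstream of STAT3, differed by 0.30, -0.004, 0.51 and 1.91, and the stress-induced factor ATF3 by -0.80, -0.08, 0.42 and 2.08. SOCS3, the feedback inhibitor of IL6 signalling, was 1.02 above NC in the gland of cow 2 labelled CFPD and 2.22 above NC in the CNT gland of that cow. ATF3 was not of this kind in the CNT glands, at -0.39 and 0.54. BIRC3, ZC3H12A and IER3 were picked out after their values had been seen. In the gland of cow 2 labelled CFPD, ZC3H12A was 3.03 and IER3 3.00 above NC, and the probe sets of BIRC3 were 1.98 and 3.10 above NC.

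By their median, the tested genes of neutrophils lay much closer to NC than to CNT levels in all 4 treated glands. S100A9, an abundant neutrophil protein, had levels of 8.34, 8.27 and 8.53 in the NC, CF and CFPD glands of cow 1, and of 8.03, 8.14 and 8.33 in those of cow 2. The CNT glands were at 12.07 and 10.68, far from all 6. A dimmer probe set of S100A9 was 0.86 above NC in the CFPD gland of cow 1 and within 0.20 of it in the others (-0.08, -0.20 and 0.004). CXCR1, a receptor for CXCL8, was at 5.58, 5.48 and 5.61 in cow 1 and at 5.01, 5.30 and 5.72 in cow 2, with CNT levels of 12.56 and 9.72. S100A8 differed from NC by -0.20, 0.23, 0.59 and 1.15, and S100A12 by -0.37, 0.53, 0.58 and 0.80. Over the 8 neutrophil genes tested, the median difference was -0.10 and 0.21 in the CF and CFPD glands of cow 1, 0.17 and 0.31 in those of cow 2, and 4.71 and 2.97 in the CNT glands. The filter counted the CNT arrays, and CXCR1, dim in all NC and treated glands, passed through them. Such a filter favours genes that are high in CNT, so the CNT medians may be raised by it. The markers ITGAM and MMP9 failed the filter. MMP9 was at 6.32 in the gland of cow 2 labelled CFPD against 6.22 in NC, and at 8.53 and 6.62 in the CNT glands. It differed from NC by 0.58 and 0.31 in the CF and CFPD glands of cow 1 and by -0.12 in the CF gland of cow 2. ITGAM was dim and not clearly raised in the CNT glands, at 4.31 and 3.89 against 4.05 and 4.12 in NC. In whole tissue, fewer cells of a type and less RNA per cell cannot be told apart.

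**Figure D2:**
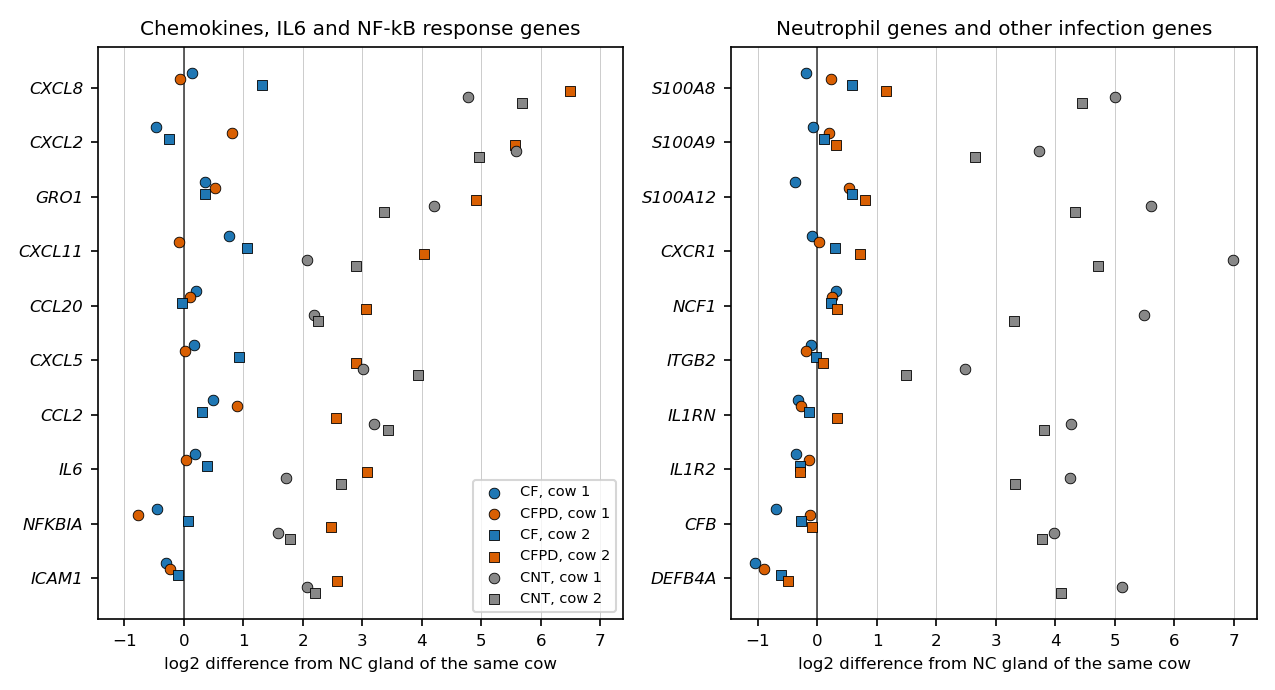
Log2 difference from the NC gland of the same cow (horizontal axes) for 10 chemokine, IL6 and NF-kB response genes (left) and 10 neutrophil and other infection genes (right), with 1 point per challenged gland of 24 h as labelled and small vertical offsets for legibility. The genes are chosen examples and do not stand for their classes. For those on the left the CFPD gland of cow 2 lies nearer the CNT glands, such as CXCL8 at 6.49 against 4.78 and 5.68. On the right it lies with the other treated glands, such as S100A9 at 0.30 against 3.73 and 2.65. The chemokine CCL4, not shown, was at 0.72 in that gland against 3.29 and 2.47 in the CNT glands. GRO1 is shown by a dim probe set, and its brightest was at 0.52 there.

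Acute phase and antimicrobial genes differed from gland to gland. HP, which encodes haptoglobin, had levels of 6.48, 6.01 and 7.66 in the NC, CF and CFPD glands of cow 1, and of 7.55, 9.19 and 9.93 in those of cow 2. It was above NC in 3 of 4 treated glands and still far under the CNT levels of 13.43 and 14.06. LBP, the lipopolysaccharide-binding protein, was above NC in all 4, by 0.31, 0.56, 0.23 and 0.54. Its pooled difference of 0.41 had a standard error of 0.12, an unadjusted p of 0.0117 and an adjusted p in limma of 0.305. SAA3, the mammary serum amyloid, differed by -1.33, -0.04, -0.01 and 1.31, so its sign depended on the gland. PTX3, a secreted pattern receptor, differed by -0.60, -0.31, 0.38 and 1.30. LAP, a beta-defensin of epithelia, was 1.43 and 1.16 above NC in the treated glands of cow 1 and -0.30 and 0.01 from it in cow 2. Another beta-defensin gene, DEFB4A, had levels of 7.42, 6.37 and 6.52 in cow 1 and of 6.01, 5.40 and 5.52 in cow 2, and of 12.55 and 10.11 in the CNT glands. The pooled difference of this probe set of DEFB4A was -0.77 (adjusted p 0.180 in limma), opposite in sign to the CNT glands. The second probe set of DEFB4A was at -0.63, -0.25, 0.04 and -0.20, so it was not below NC in every gland. CHI3L1, a chitinase-like lectin of macrophages, went the same way at -0.71, with CNT glands 2.57 and 2.21 above NC. Over the 13 genes tested the median was -0.001.

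Several genes shared by leukocytes lay below NC in the treated glands. PTPRC, which encodes the common leukocyte antigen CD45, differed by -1.32, -0.66, -0.23 and -0.86, with a pooled value of -0.77, a standard error of 0.24 and an adjusted p in limma of 0.314. LAPTM5, a lysosomal protein of blood cells, differed by -0.86, -0.84, -0.38 and -0.48, and the actin-binding CORO1A by -0.80, -0.53, -0.23 and -0.37. Of 8 pan-leukocyte genes 5 were below NC in all 4 treated glands and 3 had an unadjusted p under 0.05, all lower, beside 19.6% and 7.56% of all genes. Among 8 T and NK cell genes 4 were below NC in all 4, and CD3G, CD3E and CD2 had an unadjusted p under 0.05. Without the gland of cow 2 labelled CFPD 0 of the 8 had such a p, and 3 of the 8 pan-leukocyte genes did. CD3G, a chain of the T cell receptor complex, had a pooled difference of -0.69 with an adjusted p in limma of 0.401. It passed the filter on low signals only through the NC glands and the CNT gland of cow 2, which favours a lower value in treated glands. Monocyte and macrophage genes did not share the lower direction. Of these, 3 of 10 were below NC in all 4, and 0 were lower and 1 was higher at an unadjusted p under 0.05. CD68 differed by -1.15, -0.66, 0.01 and 0.33, with the sign parting the cows, and CD14 was at 0.26, 0.46, 0.58 and 1.45 on its brighter probe set. The probe sets of CD14 disagree in cow 1, since the dimmer one was at -0.16, -0.07, 0.44 and 1.23. JCHAIN, of plasma cells, was -0.99 and -0.58 from NC in cow 1 and 0.08 and -0.04 in cow 2.

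Several genes of contractile cells and matrix had small p-values. CNN1, a calponin of smooth muscle and of the myoepithelial cells that eject milk, had levels of 10.88 in NC, 10.12 in CF and 10.05 in CFPD in cow 1. In cow 2 these levels were 10.44, 9.38 and 9.53, and the CNT glands were lowest at 9.11 and 8.85. Both NC glands lay above all 4 treated glands. The difference was -0.89 (standard error 0.10, 95% confidence interval -1.12 to -0.66) with an unadjusted p of 3.23e-05 and an adjusted p in limma of 0.165. MYH11, smooth muscle myosin, was at 12.87, 12.17 and 12.09 in cow 1 and at 12.28, 11.79 and 11.68 in cow 2. ACTA2, smooth muscle actin, was 0.47 to 0.75 below NC in the 4 glands. For TPM2, a tropomyosin, the pooled difference was -0.75 with an unadjusted p of 5.64e-05. Of 7 myoepithelial genes tested 5 were below NC in all 4 glands and 5 had an unadjusted p under 0.05, beside 19.6% and 7.56% of all genes. The list's median was -0.60, and in the CNT glands it was -0.97 and -0.88. Without the gland of cow 2 labelled CFPD 6 of the 7 had such a p. The basal keratins were uneven, since KRT14 was 0.17 and 0.60 above NC in cow 1 and 1.50 and 1.55 below it in cow 2 (differences -1.50 and -1.55). KRT15, another basal keratin, was -1.63, -1.08, -0.91 and -1.27 from NC, with a pooled value of -1.22 and an adjusted p in limma of 0.176.

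LUM, which encodes the collagen-binding proteoglycan lumican, had levels of 8.95, 8.17 and 8.13 in the NC, CF and CFPD glands of cow 1, and of 7.74, 7.03 and 7.09 in those of cow 2. Within each cow both treated glands lay below NC for LUM, but the NC gland of cow 2 lay below the treated glands of cow 1. The pooled difference was -0.74 (standard error 0.09, unadjusted p 5.31e-05, adjusted p in limma 0.165). FMOD, a related proteoglycan, and COL12A1, a fibril-associated collagen, had pooled differences of -0.78 and -0.72. Like TPM2, these genes were picked out for their small p-values after the values had been seen. COL3A1, SPARC and COL6A1 differed by -0.64, -0.48 and -0.42. Not all matrix genes did so, with COL1A1 at 0.02 and FN1 at 0.05, and 5 of the 9 tested were below NC in all 4 glands. GPNMB, a glycoprotein of macrophages and osteoclasts, had the most negative difference among genes named by the rule. Its levels were 8.38, 6.14 and 6.69 in the NC, CF and CFPD glands of cow 1 and 6.35, 5.20 and 5.07 in those of cow 2. The pooled difference for GPNMB was -1.59 (standard error 0.21, unadjusted p 9.71e-05, adjusted p in limma 0.176), and its CNT levels of 7.55 and 5.96 lay between those of the NC and treated glands of the cow. GPNMB passed the filter on low signals only through the NC and CNT glands of cow 1, which favours a lower value in treated glands.

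**Figure D3:**
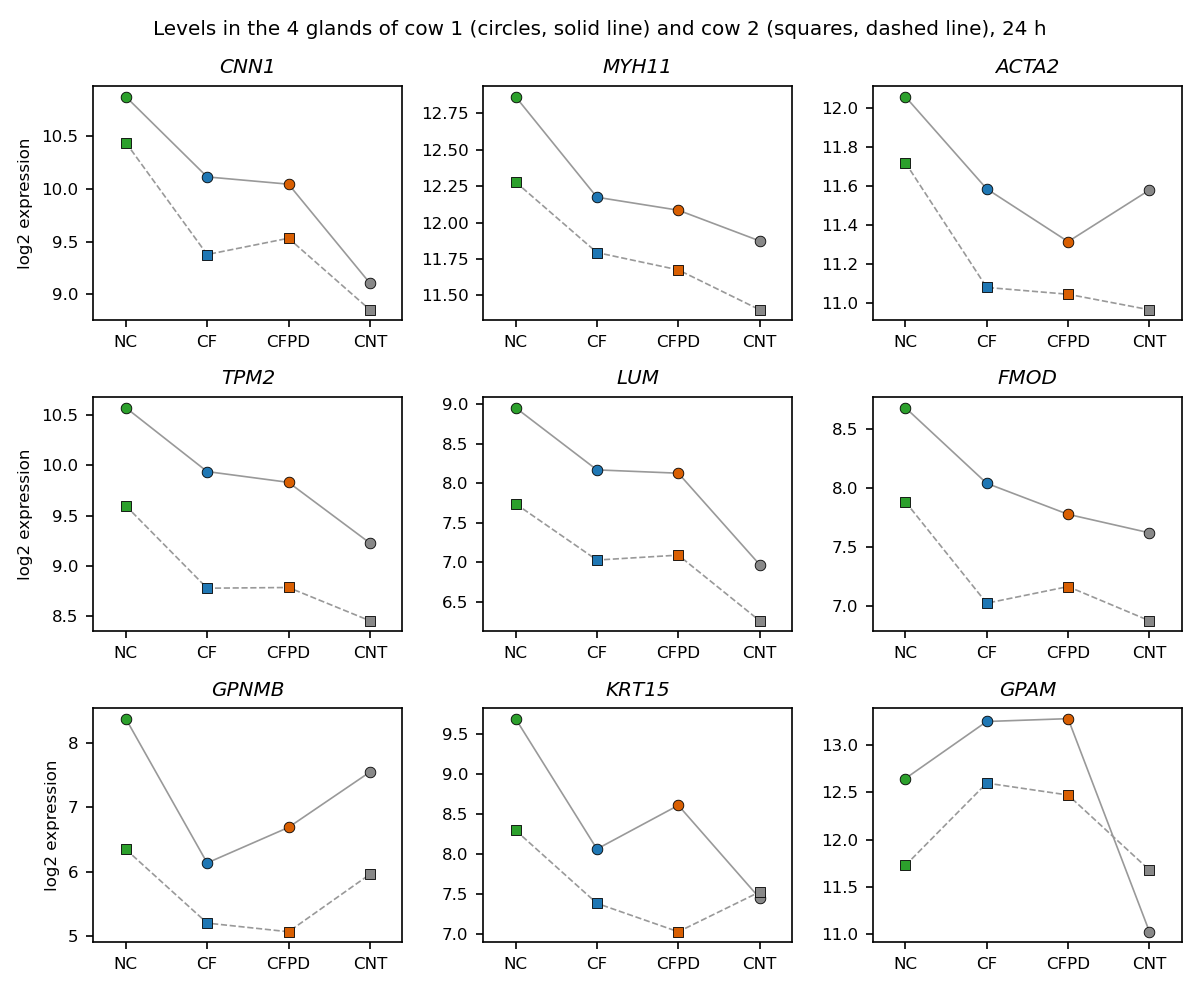
Log2 expression (vertical axes) of 9 genes with small unadjusted p-values in the 4 glands of each cow at 24 h (horizontal axes, groups as labelled), with circles and a solid line for cow 1 and squares and a dashed line for cow 2. For 8 genes both treated glands lie below the NC gland of the cow, as for CNN1 by 0.76 to 1.07, and for GPAM both lie above it. Axes do not start at 0.

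Epithelial junction genes had 10 of 14 tested members below NC in all 4 glands and 5 lower at an unadjusted p under 0.05, beside 19.6% and 7.56% of all genes. The tight junction gene CLDN1 differed by -1.22, -0.43, -0.88 and -0.67, and CLDN4 by -0.58, -0.59, -0.57 and -1.17. CLDN1 passed the filter on low signals only through the NC glands, at 7.54 and 7.41. Such entry favours a lower value in treated glands, also in the counts above. PKP2 and JUP, of desmosomes, had pooled differences of -0.45 and -0.44. CLDN7 and CLDN10 were at 0.03 and 0.06. KRT18 and KRT19, keratins of luminal cells, were -0.24 and -0.28 from NC, each with an unadjusted p under 0.05.

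Milk proteins stayed within narrow limits. The 4 casein genes, LALBA and PAEP, which encodes beta-lactoglobulin, were between -0.18 and 0.14 from NC in every treated gland. Such bright genes lie near the upper end of the signal range. In the gland of cow 2 labelled CFPD, CSN2 was at 15.53 and the highest value of the array was 15.53. In the CNT glands CSN2 differed from NC by only -0.015 and -0.12, so a change may hardly show on these probe sets. Over the 13 genes for caseins, whey proteins and lactose the median was 0.019. For 30 genes of milk fat synthesis the median was 0.053 in treated glands, against -0.49 and -0.25 in the CNT glands. The lipoprotein lipase gene LPL had levels of 13.47, 13.90 and 13.53 in the NC, CF and CFPD glands of cow 1 and of 12.65, 13.14 and 12.60 in those of cow 2. The CNT glands were apart from these 6, with differences of -3.13 and -1.65 from NC. The fatty acid synthase FASN was within 0.21 of NC in the treated glands and -1.81 and -0.88 from it in the CNT glands. HPGD, which breaks down prostaglandins, was below NC in all 4, by 1.28, 0.49, 0.17 and 0.49 (difference -0.61, adjusted p 0.387 in limma), and -4.42 and -3.30 from it in the CNT glands.

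A few lipid genes lay above NC in every treated gland. GPAM, the first enzyme of triacylglycerol synthesis, had levels of 12.64, 13.25 and 13.28 in the NC, CF and CFPD glands of cow 1 and of 11.73, 12.60 and 12.47 in those of cow 2. It was the only higher one of these 20 genes of 1 symbol with the smallest p, with a difference of 0.71 (standard error 0.10, unadjusted p 1.16e-04, adjusted p in limma 0.176), and its CNT levels were 11.03 and 11.68. Of 15 genes of cholesterol synthesis 11 were above NC in all 4 glands, beside 12.9% of all genes, and 5 had an unadjusted p under 0.05. These were SQLE, CYP51A1, NSDHL, HMGCS1 and FDPS, with pooled differences of 0.43, 0.41, 0.38, 0.34 and 0.27. SQLE, an oxygenase early in the sterol branch, differed by 0.63, 0.60, 0.22 and 0.29, and it was 0.66 and 0.48 above NC in the CNT glands as well. The list's median was 0.18, beside -0.018 over all genes. SLC7A5, a transporter of large neutral amino acids, was 2.00, 0.82, 0.44 and 0.71 above NC, and -1.27 and -1.61 from it in the CNT glands. Its pooled difference of 0.99 had an adjusted p in limma of 0.336, and it ran from 0.57 to 1.41 when 1 array was left out.

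**Figure D4:**
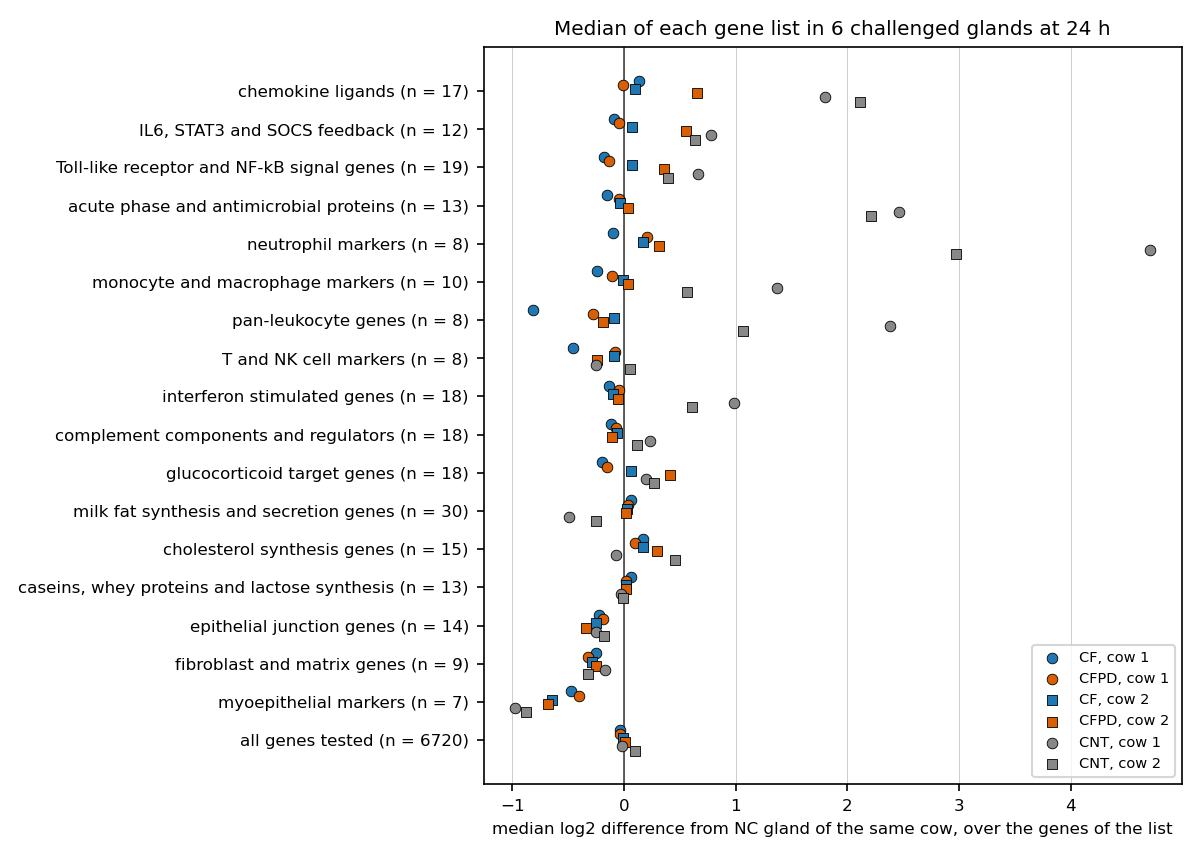
Median log2 difference from the NC gland of the same cow (horizontal axis) over the genes of 17 lists and over all 6720 genes tested, with 1 point per challenged gland of 24 h as labelled and small vertical offsets for legibility; n is the number of genes tested. Neutrophil genes reach 4.71 and 2.97 in the CNT glands and at most 0.31 in treated glands, and myoepithelial genes are below NC in all 6. The filter on low signals favours genes that are high in the CNT glands.

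The treated glands of a cow were also set against each other. With limma 0 of 13004 probe sets passed the test of CFPD against CF glands as labelled, and 523 (4.02%) had an unadjusted p under 0.05. With the labels of cow 2 exchanged 0 passed as well and 668 had such a p. The cows were unlike in size. CFPD was at least 1 above CF for 35 probe sets (0.269%) in cow 1 and 91 (0.7%) in cow 2, and at least 1 below it for 15 (0.115%) and 18 (0.138%). CXCL2 was 1.29 higher in CFPD than in CF in cow 1 and 5.81 higher in cow 2 as labelled. SAA3 was 1.29 and 1.32 higher, and TNFAIP6, a hyaluronan-binding protein induced by TNF, 1.03 and 1.73. In the other direction, PRNP, the prion protein gene, differed by -0.82 and -0.62, LAMP1, a lysosomal membrane protein, by -0.47 and -0.91, and RASGEF1B by -0.18 and -1.34. All of these had an unadjusted p under 0.05 and an adjusted p in limma of 0.966. Other probe sets of these 3 genes did not repeat these values in both cows, at 0.03 and -0.015 for LAMP1, 0.78 and 0.06 for RASGEF1B and -0.22 and 0.04 for PRNP. With the labels of cow 2 exchanged none of the 6 genes kept an unadjusted p under 0.05. They had been named for the same sign in both cows and a p under 0.05 as labelled. An exchange in 1 cow had to shrink such differences, so this loss cannot tell which labels are right. The mean differences were then -2.26 for CXCL2 (p 0.184 in limma), -0.015 for SAA3 (p 0.981), -0.35 for TNFAIP6 (p 0.583), -0.10 for PRNP (p 0.76), 0.22 for LAMP1 (p 0.487) and 0.58 for RASGEF1B (p 0.13). HP was above CF in the CFPD gland of both cows as labelled, by 1.65 and 0.74. LPL was below it in both, by -0.38 and -0.54 (unadjusted p 0.00519, adjusted p in limma 0.966). Exchanged, these mean differences were 0.45 (p 0.488) for HP and 0.08 (p 0.705) for LPL.

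Known glucocorticoid targets did not part the glands by label. Of 18 tested, 12 were higher in CFPD than in CF in cow 2 and 9 in cow 1, beside 53.9% and 50.1% of all genes, and the exchange of labels in cow 2 would leave 6 there. FKBP5, a chaperone that glucocorticoids induce, had levels of 6.70, 6.46 and 6.34 in the NC, CF and CFPD glands of cow 1 and of 7.28, 7.59 and 7.41 in those of cow 2. It was lower in CFPD than in CF in both cows as labelled, by 0.12 and 0.18 (differences -0.12 and -0.18). TSC22D3, another such target, was not analysed here. MAOA was above NC in all 4 glands, at 0.34, 0.08, 0.60 and 1.08, and 1.72 and 2.47 above it in the CNT glands. NFKBIA, on this list too, was at 2.47 against 0.08 in the treated glands of cow 2.

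Further lists were described by their medians. The medians of treated minus NC were -0.023 for 45 genes of the respiratory chain, -0.008 for 26 genes of the unfolded protein and heat shock responses, 0.005 for 13 BCL2 family and caspase genes and -0.036 for 18 interferon stimulated genes. They were -0.25 for 8 eicosanoid enzymes, of which 5 were below NC in all 4 glands, -0.17 for 14 antigen presentation genes and -0.15 for 10 matrix metalloproteinases and inhibitors. Of the 18 interferon stimulated genes 4 were below NC in all 4 glands and 2 above it, beside 19.6% and 12.9% of all genes. MX1 and IFI44L, both antiviral, were among those below, at -0.38 and -0.43 pooled. Among 18 complement genes 7 were below NC in all 4 and 0 above it, beside 19.6% and 12.9% of all genes. CFB was -0.69, -0.12, -0.27 and -0.09 from NC against 3.98 and 3.77 in the CNT glands. CLU, an inhibitor of complement, was 0.30 above NC in the CF gland of cow 1 and -0.67, -0.82 and -0.82 from it in the others. CD40, a costimulatory receptor, was -0.33, -0.36, -0.44 and -0.39 from NC on its brighter probe set, while the dimmer one ranged from -0.11 to 0.20. TIMP1, an inhibitor of metalloproteinases, was -0.19, -0.27, -1.04 and -0.74 from NC and 1.52 and 0.94 above it in the CNT glands.

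The pattern at 48 h came from 3 other cows, with 4 infusions. There treated minus NC had 1 called probe set (0.00769%) and 626 (4.82%) with an unadjusted p under 0.05, and the difference between the times had 0 of 13486 probe sets at an adjusted p under 0.05. Some genes that stood out at 24 h had other values at 48 h, in a comparison added once the data had been seen. GPNMB was at 0.35 and KRT15 at 0.09, CNN1 at -0.26 and GPAM at -0.13. LBP, at 0.41 here, was at 1.78 at 48 h, and HP was at 2.12 beside 1.19. LUM was at -0.70 beside -0.74, and PTPRC at -0.71 beside -0.77. The list medians at 48 h were -0.20 for myoepithelial genes, 0.08 for epithelial junction genes, -0.49 for pan-leukocyte genes and 0.03 for cholesterol synthesis. The unadjusted p of the time difference was 0.0024 for GPNMB and 0.0305 for CNN1, with adjusted p of 0.761 in limma for both.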

How the data were processed

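The authors deposited log2 values per probe set of Affymetrix bovine arrays, made with RMA in the affy package. Versions and the arrays normalized together are not given in the sources used here. Of 24128 probe sets, 112 are controls, 13318 have 1 gene symbol, 86 several and 10724 none. Probe sets above the array's median on at least 2 of the 8 arrays of 24 h were tested (13004). The 8 include the CNT arrays, so a gene dim in NC could pass through the glands where it was high. A gene dim in treated glands could likewise pass through the NC glands. Groups came from the sample titles. Treated minus NC and CFPD minus CF were fitted with limma 3.58.1 in R 4.3.3, with the cow as a block (3 and 2 residual degrees of freedom) and Benjamini-Hochberg adjustment. The cow pairs the glands: deviations of NC and treated glands of a cow correlated at 0.65 on average (lowest 0.57). CNT glands were compared with NC in a fit of all 8 arrays. Calls required an adjusted p under 0.05 and a log2 difference of at least 1. The fit was tested on simulated data. Single-gland differences are 1 array against 1 and have no test. A gene list is given by its brightest probe set per gene, with counts and medians only. An adipocyte list had no tested member.

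Genes were named by a rule: called or, failing that, lowest-p genes of at least 1 in size with 1 sign in all 4 glands, a panel of infection, milk and treatment genes, the member of each list with the largest difference, and the 5 largest CFPD minus CF differences each way with 1 sign in both cows and an unadjusted p under 0.05. Other list members are shown as examples. The comparison, lists and rule were chosen with earlier results of these data known. Alternatives covered the block, the samples in the fit, the filter, the prior, the normalization, the call rule, exchanged labels and leaving out each array. The comparison with 48 h was chosen after seeing the data. Each group holds 2 arrays (4 treated), which limits the precision.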

Additional observations from a re-analysis of the deposited data

Results flagged for a closer look

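Of 97 groups of 4 treated glands checked, 8 had 1 gland far from the other 3 by Dixon's criterion, and chance marks about 1 in 20 groups. That rate does not hold for genes named for a large difference, which 1 gland can bring about. It also presumes independent values, whereas the 2 treated glands of a cow share an NC gland, and some lists share genes. The rate does not allow for the filter on low signals either. IL6 passed that filter only through the CNT gland of cow 2 and the gland of cow 2 labelled CFPD. The 2 probe sets of GRO1 named below passed only through the gland labelled CFPD and the CNT glands. The gland of cow 2 labelled CFPD stood apart for 2 probe sets of the same gene, GRO1, at 5.05 and 4.91 above NC (others 0.044 to 0.425 and 0.355 to 0.517). It also stood apart for IL6 at 3.09 (others 0.029 to 0.386) and for ICAM1 at 2.58 (others -0.297 to -0.091). List medians that did so in that gland were cytokines and their receptors at 0.184 (others -0.004 to 0.023) and secretory epithelium markers at -0.063 (others 0 to 0.002). The CF gland of cow 1 stood apart for CLU at 0.301 (others -0.823 to -0.674) and for the median of caseins, whey proteins and lactose synthesis at 0.061 (others 0.019 to 0.021).

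Of 92 list members left out by the filter on low signals, 1 was at least 1 above both NC glands in a treated gland. This was TNF, at 2.24 above the higher NC gland in the gland of cow 2 labelled CFPD. Against the NC gland of the same cow alone, CXCL10 was 1.76 higher in that gland and THRSP 1.205 higher in the CF gland of cow 1. The cause of these values was not tested.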

How the results depend on the processing

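Treated minus NC had 0 called probe sets under every alternative run, leaving out each array included (0 to 0), except the trended and robust prior, with 1 (0 higher, 1 lower). With no replicate block the count was 0, with 369 at an unadjusted p under 0.05 against 1520 with it. CFPD against CF had 0 calls in all fits of 4 treated glands and 0 to 71 when 1 was left out (71 without CFPD of cow 1, 26 without CF of cow 2, 6 without CF of cow 1, 0 without CFPD of cow 2), where 1 gland stands for its group. CNT against NC had 811 calls, 514 with no replicate block and 400 to 1219 without an array (400 without NC of cow 1, 1219 without CNT of cow 2). The median of the challenge genes of 48 h, -0.038, was -0.009 when chosen with no replicate block, 0.103 when chosen at a log2 difference of 2 and -0.076 to -0.021 without an array (-0.076 without the CFPD gland of cow 2), and for genes lower in CNT it was -0.009 to 0.094.

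Treated minus NC turned its sign without an array for CXCR1 (-0.035 to 0.505), CXCL2 (-0.009 to 2.658), IL1RN (-0.296 to 0.099), CD68 (-0.908 to 0.17), FKBP5 (-0.306 to 0.22), JCHAIN (-0.787 to 0.018), ICAM1 (-0.265 to 1.246), ATF3 (-0.437 to 1.251), BCL2A1 (-0.28 to 1.467), RND1 (-0.809 to 1.962), TNFAIP6 (-0.377 to 0.693), SAA3 (-0.686 to 0.647), H2AC6 (-0.389 to 0.619) and STATH (-0.614 to 0.461). Quantile normalization gave 0.008 for SAA3. The cause was not tested, and none of these genes was called. Over all 64 named probe sets, 360 of 384 values without an array and 754 of 755 under other settings kept their sign. Of the 32 list medians, 166 of 192 values without an array and 62 of 64 under other settings moved by less than the spread (1 SD) between the treated glands.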
